A study of Mus musculus with 2 samples.

Results

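Alveolar type 2 (AT2) cells of untreated mouse lung organoids were picked out by their UMIs (unique molecular identifiers, each standing for 1 captured RNA molecule) as 740 of the 2101 cell barcodes in the control library, 35.2% of it, and of 5167 barcodes in both libraries of the series. The exact binomial (Clopper-Pearson) 95% interval of that share was 33.2% to 37.3% and, like every interval given here, covers counting error only. A member had more UMIs of 5 epithelial genes (Epcam, Cdh1, Cldn3, Cldn7, Krt18) than of 4 stromal genes (Col1a2, Col3a1, Sparc, Dcn). It had at most 2 UMIs of the AT1 genes Hopx, Rtkn2 and Akap5, and at most 2 of the cell cycle genes Mki67, Top2a, Cdk1, Birc5 and Ube2c. The 10% of the remaining cells with the highest score on Krt8, Krt19, Cldn4, Sprr1a, Sfn and Lgals3 (the mean natural log of UMIs per 10000, plus 1) were left out, and the surfactant gene Sftpc had to make up at least 3% of a cell's UMIs. Since these UMIs chose the cells, everything said of the members is a description of 1 library, with no test.

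The organoids were grown from AT2 cells of adult Sftpc-CreERT2;R26RTomato mice (strain C57BL/6) given tamoxifen, cultured with lung stromal cells and kept with PBS (control) or with the cytokine IL-1β. The Sftpc promoter drives the tamoxifen-dependent Cre in this line, so the Tomato reporter marks cells that used this promoter when the drug was given, and all that descends from them, whatever they have become. Both conditions share the alleles, the drug and the stromal cells, and each is 1 library, so condition and library cannot be told apart. The sources differ on the days of culture and on the amount of IL-1β.

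AT2 cells are the cuboidal secretory cells of the alveolus. They make surfactant, the film of phospholipid and protein that keeps alveoli from collapsing, and store it in lamellar bodies before secretion. They also act as progenitors of the flat AT1 cells that line the gas exchange surface.

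The members held 10734557 of the control library's 33965848 UMIs. A member had between 4626 and 37727 UMIs, with a median of 14036, and between 1298 and 5783 genes, with a median of 3397. Mitochondrial UMIs made up a median of 4.29%, reached 39.4% in 1 member and passed 10% in 28 members. No doublet caller was run here, so cells caught together remain, and in 83 members the epithelial sum was under 2 times the stromal sum. The libraries shared 11 barcode sequences, 3 of them among the members. Of the other control barcodes, 289 passed the epithelial step: 149 with over 2 UMIs of the AT1 genes (AT1-gene cells), 50 cycling cells, 83 cells left out on the Krt8 score (Krt8-program cells) and 7 with too little Sftpc. Another 822 barcodes had a stromal sum over 5 times their epithelial sum and are called stromal cells. The last 250 (211 with AT1 genes and 39 without) failed the epithelial step by less and are called intermediate cells. Sparc, on the stromal side of that step, stood at 3214 CPM (UMIs per 1000000, summed over the cells of a class) in the 211 cells with AT1 genes, against 249 CPM in the members. The 17 listed AT1 genes summed to 28508 CPM in those 211 cells and to 5779 CPM in the 289 epithelial cells, of which 149 are AT1-gene cells. As a class the 211 cells thus held more AT1 RNA, and single cells were not compared. Hopx, Rtkn2 and Akap5, on which the 211 were chosen, are among the 17 genes. Of the 289, all but the AT1-gene cells had at most 2 UMIs of these genes, so the choice fixed part of the gap.

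Sftpc, which encodes surfactant protein C (chr14:70520949-70524081, minus strand, GRCm38), took between 3.17% and 19.6% of a member's UMIs, with a median of 9.91%. The middle 50% of the members lay between 7.26% and 12.6%. Median shares were 9.12% in Krt8-program cells, 7.87% in cycling cells, 7.91% in AT1-gene cells, 1.36% in the intermediate cells with AT1 genes and 0.319% in stromal cells. So all classes that passed the epithelial step, but for the 7 Sftpc-low cells, were rich in Sftpc, and the share did not set the members apart from them. It did differ from the intermediate cells with AT1 genes. Those cells failed that step, yet their 8 epithelial adhesion genes summed to 6827 CPM, against 2045 CPM in the members. Few cells sat at the Sftpc limit: the lowest 3 members had 3.17%, 3.36% and 3.47%, the next cells outside had 2.80%, 2.79% and 2.73%, and 10 members were under 4%. The Krt8 score cut through a continuous range, with 0.73371 in the highest member and 0.73393 in the lowest cell left out. At the AT1 step 480 members had no UMI and 56 had 2, while 40 AT1-gene cells had 3.

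**Figure D1:**
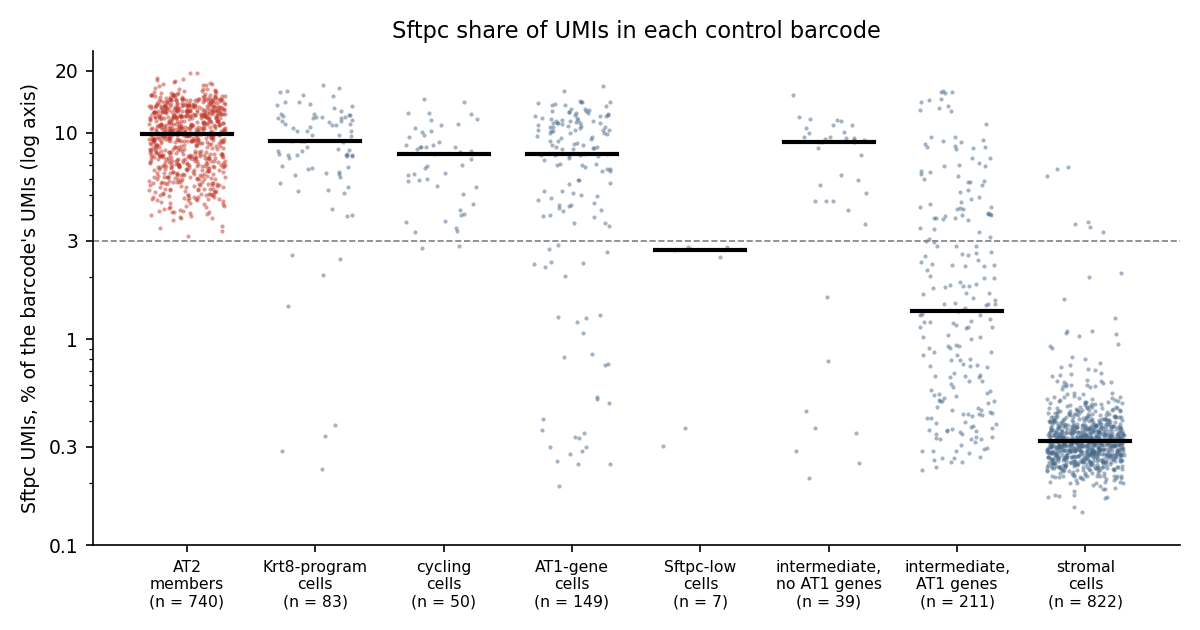
Each point is 1 control barcode, placed by the percent of its UMIs that are Sftpc (log axis) and by class, bars mark class medians, and the dashed line is the 3% limit of the rule. Members lie between 3.17% and 19.6%, most Krt8-program, cycling and AT1-gene cells lie in that range with some below 3%, the 7 Sftpc-low cells lie below it, and stromal cells have a median of 0.319%.

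The label was checked on the other 4 markers given with it. Sftpa1, which encodes the collectin surfactant protein A, stood at 8682 CPM in the members, against 238 CPM in stromal cells. Slc34a2, the phosphate transporter of the AT2 apical membrane (chr5:53038081-53071664, plus strand), stood at 3890 CPM against 98.2 CPM. Lamp3, a lamellar body membrane protein (chr16:19653378-19706375, minus strand), was at 944 CPM against 29.2 CPM. Abca3, the transporter that loads phospholipid into lamellar bodies (chr17:24351950-24410201, plus strand), was at 555 CPM against 41.5 CPM. All 4 were therefore at least 10 times higher in the members, and they go with the label. Against AT1-gene cells of the epithelial gate the steps were small, with 5221 CPM of Sftpa1, 2622 CPM of Slc34a2, 592 CPM of Lamp3 and 395 CPM of Abca3 there. Against the intermediate cells with AT1 genes Sftpa1 was past 2-fold higher in the members, as were the other surfactant genes. The AT1 gene Ager, which was not in the rule, stood at 892 CPM in the members, 2968 CPM in AT1-gene cells and 12245 CPM in intermediate cells with AT1 genes. Stromal cells, which should lack Ager, had 680 CPM of it, so that the members' level was 1.31 times (1.28 to 1.35) that level.

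Markers of other cell types were low. The 10 macrophage and leukocyte genes summed to 12.3 CPM in the members, with Cd68 highest at 6.80 CPM and the macrophage receptor Adgre1 and the lymphocyte gene Cd52 at 0 UMIs, which allows up to 0.279 CPM each. The 6 endothelial genes summed to 2.89 CPM, and Cdh5, Kdr and Emcn had no UMI. The 5 neuroendocrine genes summed to 0.279 CPM, with Calca and Chga at 0. The 11 airway genes summed to 186 CPM, nearly all from the club cell genes Scgb1a1 (99.8 CPM) and Cyp2f2 (85.7 CPM), while the ciliated cell gene Foxj1, the basal cell gene Krt5 and the mucin genes Muc5ac and Muc5b had none. The 10 stromal genes summed to 386 CPM, of which Sparc gave 249 CPM, against 10464 CPM in stromal cells.

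Promoter sequences are shown for the genes on which the next paragraphs turn, as RefSeq gives them for GRCm38.p6. Sftpb, which encodes the surfactant protein that spreads lipid over the alveolar surface, and Sftpa1 carry the 6 letters CTCAAG (capitals), the core that the lung transcription factor Nkx2-1 is known to bind. CTCAAG, read on either strand (CTTGAG on the other), occurs in 13.3% of the 32851 promoters of the same 250 bases, and in 2 of the 8 AT2 genes found in that table. A match describes the letters only and is no sign that the factor binds there. In Sftpb (chr6:72304360-72304609, plus strand) it starts 100 and 15 bases before the start of transcription, and in Sftpa1 (chr14:41131538-41131787, plus strand) 166 bases before it.
Sftpb: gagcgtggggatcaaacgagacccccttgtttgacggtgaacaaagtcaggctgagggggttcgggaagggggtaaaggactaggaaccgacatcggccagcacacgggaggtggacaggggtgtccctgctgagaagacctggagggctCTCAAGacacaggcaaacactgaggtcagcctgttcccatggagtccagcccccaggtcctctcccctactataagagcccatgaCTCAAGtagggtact
Sftpa1: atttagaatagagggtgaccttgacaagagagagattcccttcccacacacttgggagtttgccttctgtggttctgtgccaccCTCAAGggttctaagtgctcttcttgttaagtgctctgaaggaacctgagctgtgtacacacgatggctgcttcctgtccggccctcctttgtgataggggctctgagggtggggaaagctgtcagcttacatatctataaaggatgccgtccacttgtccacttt
Lyz1 and Lyz2 encode 2 lysozymes, enzymes that cut bacterial cell walls, and lie next to each other on chromosome 10. They are shown because their promoters are nearly alike and their spread among the members was not. Of the 120 bases before each start, 111 are identical, and capitals mark the bases that differ (Lyz1 at chr10:117292869-117292988 and Lyz2 at chr10:117282273-117282392, both minus strand).
Lyz1: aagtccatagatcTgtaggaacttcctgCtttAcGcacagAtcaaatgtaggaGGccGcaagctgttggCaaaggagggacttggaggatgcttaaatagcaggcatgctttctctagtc
Lyz2: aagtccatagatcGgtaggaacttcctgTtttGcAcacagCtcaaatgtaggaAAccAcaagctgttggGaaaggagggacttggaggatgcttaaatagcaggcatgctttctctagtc

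Against the 289 other epithelial cells of the control library, the members differed mostly by what they lacked. Of 10018 genes with at least 50 UMIs over both groups, 30 (0.299%) were at least 2-fold higher in the members and 554 (5.53%) at least 2-fold lower. The median of all genes was -0.18 on the log2 scale, and 2852 of the 10018 had a ratio above 1, the background for the counts of listed genes above 1 that follow. With the intermediate cells added to the other epithelial cells, after the data were seen, 80 genes were higher and 1143 lower. The rule fixed part of this: it removed cells with AT1, cell cycle or Krt8-program UMIs, and 14 of 17 AT1 genes, all 12 cell cycle genes and 12 of 14 DATP (damage-associated transient progenitor) genes with enough UMIs were over 2-fold lower. The DATP list joins genes that the study's text names for this state with Krt19, Sfn, Lgals3, Krt7, Krt18 and S100a6, added here. It leaves out some that the text names, such as Trp53 and Hif1a. The 12 genes furthest below, ranked by the bound of the ratio's interval nearest 1, were Cldn4 and Sprr1a of the Krt8 score and the cell division genes Ube2c, Cdca3, Pbk, Top2a, Birc5, Ccnb1, Nusap1, Rrm2, Mki67 and Ccna2.

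Surfactant genes were higher by less than 2-fold. Sftpc stood at 102020 CPM in the members and 79435 CPM in the other epithelial cells, a ratio of 1.28. Sftpb stood at 12203 and 9422 CPM, a ratio of 1.30 (95% interval 1.28 to 1.31). Sftpa1 was 1.40 times higher. Sftpd, the other surfactant collectin (chr14:41172214-41185149, minus strand), had 2396 and 2400 CPM, a ratio of 1.00 (0.977 to 1.02). Sftpd was thus level between the groups, while Sftpb and Sftpa1, which the rule did not name, stood modestly higher in the members. The 4 genes had a median of 0.37 (log2), beside -0.18 for all genes. Sftpc is 1 of the 4, so the rule fixed part of this median.

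Genes that build and handle surfactant lipid followed the same scale, and the list as a whole was split. Of 15 lamellar body and surfactant handling genes 8 had a ratio above 1, with a median of 0.13, and none was past 2-fold either way. Abca3 had a ratio of 1.47 (1.40 to 1.55), Slc34a2 1.41 (1.39 to 1.44) and Lamp3 1.34 (1.29 to 1.39). Lpcat1, which remodels surfactant phosphatidylcholine, stood at 1159 CPM with a ratio of 1.27, and Napsa, a protease that processes surfactant proteins, at 2022 CPM with 1.10. Prdx6, an antioxidant enzyme with phospholipase activity, went the other way, at 286 CPM in the members and 553 CPM in the other epithelial cells, and so did Ctsh, a protease of surfactant protein processing, at 503 and 716 CPM. Stromal cells had 97.3% of the members' Prdx6 level and 16.9% of their Ctsh level.

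Fatty acid synthesis separated the members more clearly by single enzymes than as a list. Of 24 fatty acid and sterol genes 12 had a ratio above 1 and none was past 2-fold, with a median of -0.00 that became 0.07 when surfactant, mitochondrial and ribosomal UMIs were left out of the totals. Scd1, which makes monounsaturated fatty acids, stood at 18208 CPM against 12033 CPM, a ratio of 1.51. Fasn, the fatty acid synthase, stood at 1592 CPM against 984 CPM, a ratio of 1.62 (1.57 to 1.67). Elovl1, an elongase of very long fatty acids, stood at 2719 CPM against 1600 CPM, a ratio of 1.70 (1.66 to 1.74), and the lipid carrier Fabp5 at 4941 CPM with a ratio of 1.34. Elovl6, another elongase, had only 14 UMIs in all members, 1.30 CPM. The list divided by branch, as was noticed after the values were seen. Acly and Acaca, the first enzymes of fatty acid synthesis, had ratios of 1.29 and 1.23, while the sterol genes Hmgcs1 (0.803), Idi1 (0.782), Fdft1 (0.727) and Sqle (0.802) stood lower in the members.

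Defense and secreted proteins were the other large group. Of 16 listed genes with enough UMIs 12 had a ratio above 1, with a median of 0.24. Of these 16 Lyz1 was past 2-fold higher, while the neutrophil chemokine Cxcl2 (47 and 122 UMIs, ratio 0.184) and the chitinase Chia1 (89 and 88 UMIs, ratio 0.484) were past 2-fold lower. In the other group 1 cell held 63 of the 122 Cxcl2 UMIs and 1 cell 21 of the 88 Chia1 UMIs. Without the richest cell of each group the ratios were 0.292 (0.187 to 0.449) and 0.593 (0.425 to 0.831), so Chia1 was no longer past 2-fold. Lyz2, the lysozyme of AT2 cells and macrophages, was second only to Sftpc at 24087 CPM, against 15547 CPM in the other epithelial cells (ratio 1.55). Cxcl15, a chemokine of lung epithelium, stood at 9245 CPM with a ratio of 1.57 (1.55 to 1.59). Lcn2, an iron-binding defense protein, stood at 3686 CPM with a ratio of 1.34, and Chil1, a chitinase-like protein, at 3226 CPM with 1.33. The class II antigen presentation genes were not particular to the members, with Cd74, the invariant chain, at 5498 and 5358 CPM. The 8 listed primed AT2 genes, which are 7 that the study names for this state and Lcn2, which was added here, had a median of 0.05 with 5 above 1, and Lrg1, a secreted glycoprotein, was the one furthest above, at 1484 CPM with a ratio of 1.74 (1.69 to 1.80).

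Transcription factors of the lung epithelium showed no common direction, with 10 of 21 above 1 and a median of -0.00 (0.08 with the reduced totals). Nkx2-1, the master regulator of lung epithelium, stood at 219 and 239 CPM. Cebpa, needed for AT2 maturation, stood at 303 CPM with a ratio of 1.32 (1.23 to 1.41), Etv5, a factor downstream of FGF signaling, at 303 CPM with 1.39 (1.30 to 1.49), and Id2, an inhibitor of helix-loop-helix factors, at 477 CPM with 1.49 (1.41 to 1.57). Fgfr2, the receptor through which FGF reaches AT2 cells, stood at 240 CPM with a ratio of 1.43 (1.32 to 1.54), and 5 of the 15 growth factor genes with enough UMIs were above 1, with a median of -0.25. Areg, an EGF receptor ligand, was lower, at 22.0 CPM against 85.8 CPM. Of the Wnt genes, 6 of 10 were above 1 with a median of 0.06, and the target gene Axin2 had 62 UMIs in all members, 5.78 CPM. The IL-1 receptor Il1r1 had 20 UMIs, 1.86 CPM, or 0.0485 times its stromal level of 38.4 CPM, and the cytokine Il1b had none.

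The other lists were near the background or below it. The 11 ion and water transport genes with enough UMIs had a median of -0.38 with 4 past 2-fold lower, the 5 IL-1 pathway genes -0.08, the 16 genes of protein folding in the endoplasmic reticulum -0.17, the 10 immediate early and heat shock genes -0.12 and the 8 epithelial adhesion genes -0.60. The last list includes 5 genes of the rule.

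**Figure D2:**
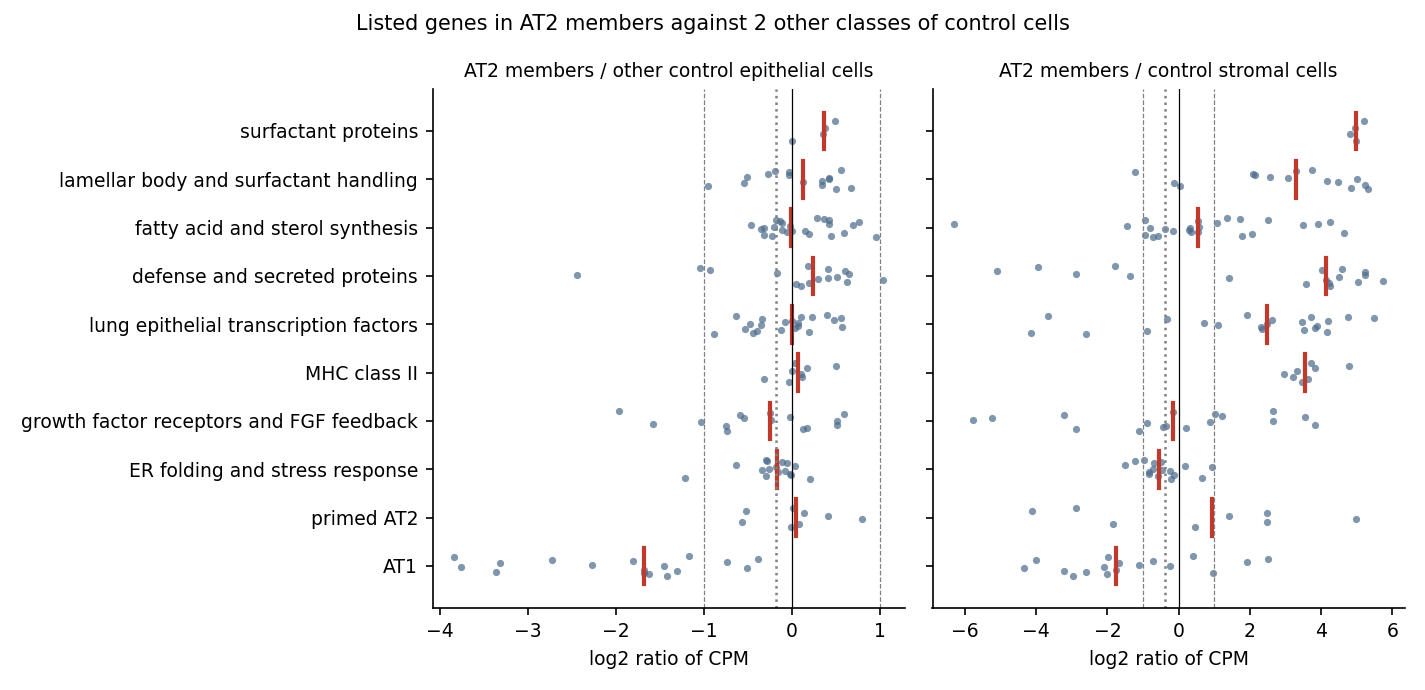
Points are listed genes with at least 50 UMIs, placed by the log2 ratio of CPM in the 740 members to the 289 other control epithelial cells (left) or the 822 stromal cells (right). Red bars are list medians, dashed lines mark 2-fold, and the dotted line is the median of all genes (-0.18 left, -0.38 right). The surfactant list, which includes Sftpc of the rule, has medians of 0.37 and 4.97. It stands near the other epithelial cells and far above stroma.

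The 12 genes furthest above by the same bound were a mixed group. Ros1, a receptor tyrosine kinase, had 168 UMIs in the members and 32 in the other epithelial cells, a ratio of 2.51 (1.71 to 3.79). Fat2, an atypical cadherin, had 100 and 18 UMIs, a ratio of 2.66 (1.60 to 4.67). Prmt8, an arginine methyltransferase, stood at 57.9 CPM with a ratio of 2.02 (1.69 to 2.44), and Acoxl, related to peroxisomal acyl-CoA oxidases, at 252 CPM with 1.81 (1.67 to 1.97). Rnase4, a secreted ribonuclease, had a ratio of 1.64, Nrn1, a membrane-anchored protein known from neurons, 1.73 and Bex2, a small X-linked gene, 1.63. The other 5 were Lrg1, Elovl1 and Fasn (above), Lyz1, with a ratio of 2.06 (1.87 to 2.27), and Ccl5. Ccl5, a chemokine of lymphocytes, headed the order with a ratio of 8.46, but 95 of its 106 UMIs were in 1 member, and without the cell richest in it in each group the ratio was 1.05 (0.337 to 3.87). The airway gene Scgb1a1 was likewise lower in the members (99.8 against 633 CPM) largely through 1 AT1-gene cell that held 2053 of the 3253 UMIs of the other group, and the ratio of 0.158 became 0.388 without the richest cell of each group.

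Against all 1072 barcodes that failed the epithelial step, 1045 of 11903 genes (8.78%) were at least 2-fold higher in the members and 3254 (27.3%) lower. Against the 822 stromal cells alone, a comparison added after the data were seen, 1424 of 11653 genes (12.2%) were higher and 3200 (27.5%) lower. All 4 surfactant genes, including Sftpc of the rule, were higher than in stromal cells (median 4.97 on the log2 scale, -0.38 for all genes). So were 12 of 15 lamellar body genes (median 3.29), all 8 class II genes (3.55), 12 of 17 defense genes (4.14) and 15 of 21 transcription factors (2.49). Past 2-fold lower were the lysosomal membrane gene Cd63 of the lamellar body list, the other 5 defense genes (the chemokines Cxcl1, Cxcl2 and Ccl20, the growth factor Csf1 and the complement gene C3) and the 3 transcription factors Sox9, Cebpb and Tcf7l2. Only 10 of 25 fatty acid and sterol genes were, and 2 were lower, for a median of 0.55. Against the 211 intermediate cells with AT1 genes, also added after the data were seen, 561 of 9857 genes (5.69%) were higher and 1813 (18.4%) lower. All 4 surfactant genes, including Sftpc of the rule, were past 2-fold higher than there (median 1.94, -0.42 for all genes). So were 7 of 15 lamellar body genes, with 3 lower, and 11 of 15 defense genes, with 1 lower. Relative to stromal cells Nkx2-1 stood 11.4 times higher in the members (10.1 to 13.0) and Fgfr2 6.30 times (5.75 to 6.92).

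AT2 transcripts were also found in stromal cells, at a low fraction of the members' level. That fraction was 3.55% for Sftpc, 3.25% for Sftpb, 2.74% for Sftpa1 and 3.15% for Sftpd. It was 3.08% for Lyz2, 2.65% for Cxcl15, 2.53% for Slc34a2, 3.10% for Lamp3 and 3.16% for Lrg1. These 9 genes lay within a narrow range, though not all within counting error of each other. Lyz1 stood below them at 1.87%. Others stood above, with 4.04% for Scd1, 4.47% for Napsa, 5.24% for Elovl1, 6.10% for Chil1, 7.47% for Abca3, 7.68% for Cd74, 8.84% for Fasn, 16.4% for Etv5, 30.1% for the citrate lyase gene Acly and 37.5% for Lcn2. In the other direction the members held 1.98% of the stromal level of the collagen gene Col1a2, 2.39% of Col3a1, 2.16% of the proteoglycan gene Dcn and 6.48% of the matrix protein gene Sparc. Col1a2, Col3a1, Sparc and Dcn were in the rule, and Pdgfra, a fibroblast receptor that was not, had 1.55%. Whether free RNA, doublets or expression gave these UMIs was not tested.

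**Figure D3:**
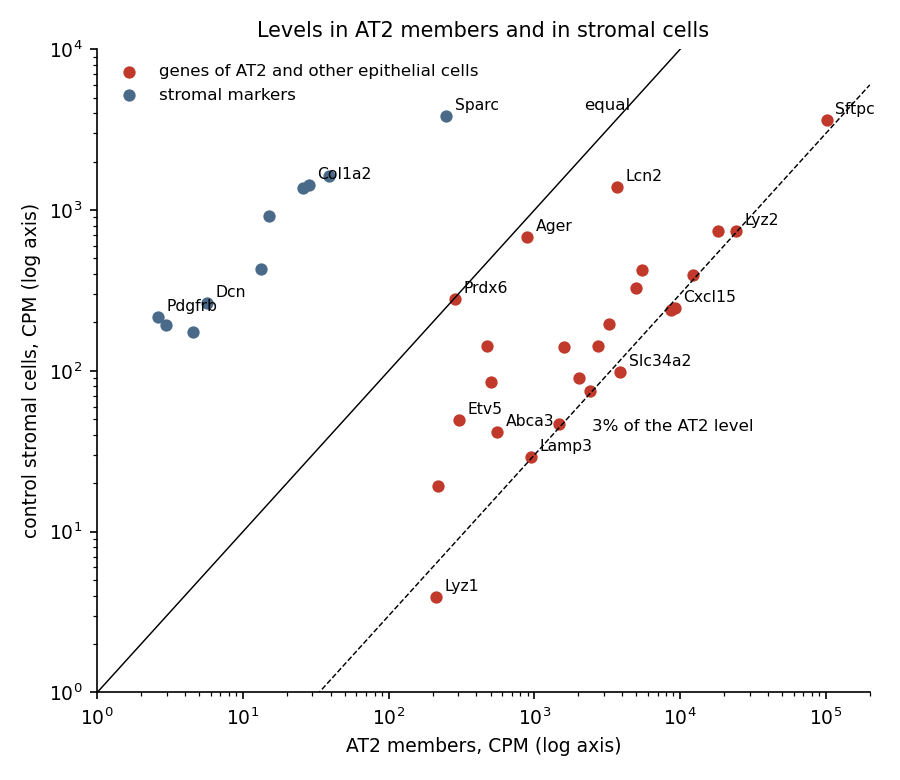
Each point is a gene placed by its CPM in the 740 members and in the 822 stromal cells (both axes log), with red for epithelial genes and blue for stromal markers. The solid line marks equal levels and the dashed line 3% of the member level. Sftpc, Lyz2, Cxcl15, Lamp3 and others lie close to the dashed line, while Lcn2, Ager and Prdx6 lie well above it.

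Members were compared with each other after each cell was thinned to 4600 UMIs. Of 2715 genes with a mean of at least 0.2 UMIs, the median Fano factor (variance over mean, 1 for counting error alone) was 1.05, and only 72 genes were above 2. For genes with means near 0.2 UMIs the factor stays near 1 even where cells differ, so it does not show that such genes varied little. At the same relative spread the factor rises with the mean. A high factor in an abundant gene therefore does not make that gene the most variable. Sftpc had the highest factor, 50.1, with 143, 456 and 898 UMIs of 4600 in the lowest, median and highest member. Lyz2 had 21.0, with 3, 106 and 273 UMIs, and Scd1 13.0, with 6, 85 and 290 UMIs. The rest of the first 12 were the nuclear RNA Malat1, the mitochondrial genes mt-Atp6, mt-Co3, mt-Co1, mt-Cytb and mt-Nd1, and Lyz1, Scgb1a1 and Gstm1. Lcn2 came soon after, at 11.9, with 0, 12 and 155 UMIs.

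Lyz1, Scgb1a1 and Gstm1 were different in kind, with high factors at means below 1 UMI. Lyz1 had a factor of 34.3, and the 11 members with at least 5 of 4600 UMIs held 1585 of its 2258 UMIs, 70.2%. It stood at 8326 CPM in these 11 cells and 63.8 CPM in the other 729, against a stromal level of 3.93 CPM. In the same 11 cells Lyz2 stood at 15187 CPM against 24247 CPM, a ratio of 0.626 (0.604 to 0.650), and Sftpc at 89899 against 102239 CPM. So the cells rich in Lyz1 still held more Lyz2 than Lyz1. Their Sftpc is bounded below by the rule. The transcripts of the paralogs may share reads, so the split of counts between them is uncertain. Outside the members, 2 AT1-gene cells, 1 cycling cell, 1 Krt8-program cell and no stromal cell reached 5 UMIs of Lyz1.

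Scgb1a1, the secretoglobin of club cells, had a factor of 14.9, and 16 members held 56.7% of its UMIs. Among genes picked after their values were seen, Cyp2f2 was 4.53 times (3.52 to 5.76) and the acute phase gene Hp 2.79 times (2.48 to 3.14) as high in these 16 cells as in the other 724. Chil1 had a ratio of 0.498 and the class II gene H2-Aa 0.528 in them, while Sftpc stood at 115549 against 101763 CPM. Gstm1, a glutathione transferase, had a factor of 14.6, and 5 members held 36.4% of its UMIs. Ifi27l2a, an interferon-induced gene also noticed after the values were seen, had 41.4% of its UMIs in 18 members, in which the interferon-induced Bst2 was 4.50 times (3.67 to 5.46) and Isg15 3.08 times (2.07 to 4.44) as high. Of the 6 pairs among the 4 sets 5 shared no cell, and Gstm1 and Ifi27l2a shared 1. Unrelated sets this small would share few cells, so nothing is read from this, and the levels within a set rest on few cells.

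**Figure D4:**
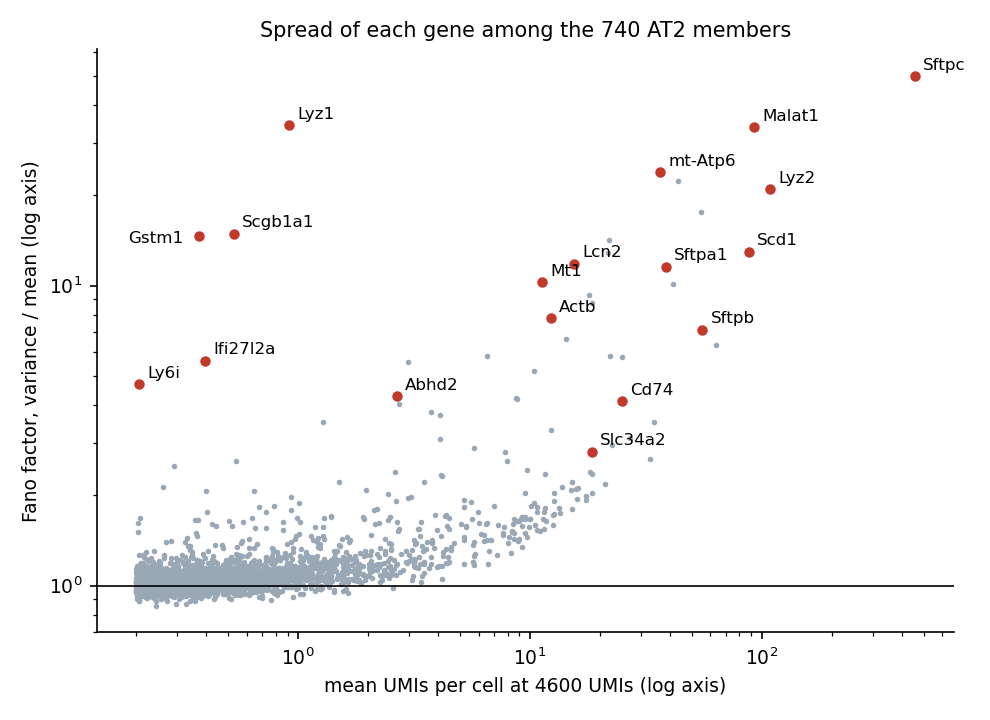
Each point is 1 of 2715 genes, placed by its mean UMIs per member at 4600 UMIs and its Fano factor over the 740 members (both axes log), with a line at the counting value of 1. Red points are named genes. Sftpc is highest at 50.1, and Lyz1, Scgb1a1, Gstm1 and Ifi27l2a stand far above other genes of like mean.

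**Figure D5:**
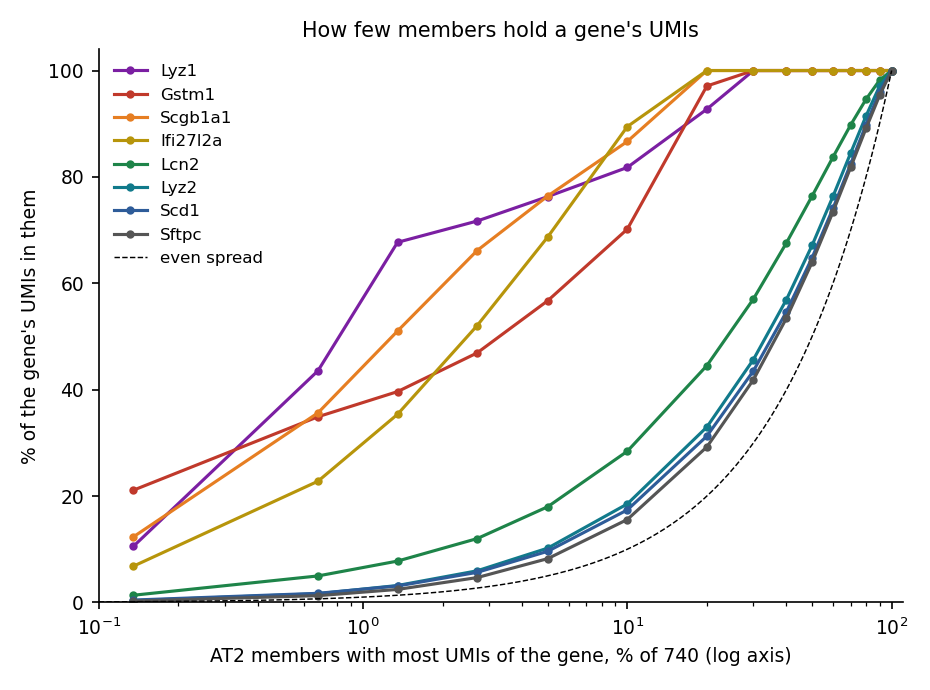
Lines show the percent of a gene's thinned UMIs held by the members richest in it, against the percent of the 740 members (log axis), with the dashed line for an even spread. The richest 10 members, 1.35% of them, hold 67.7% of Lyz1 and 51.0% of Scgb1a1 but 2.45% of Sftpc, 3.18% of Lyz2 and 7.78% of Lcn2.

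The concentration of a gene in few members can be read from the plot of ranked cells. The richest 10 members held 67.7% of Lyz1, 51.0% of Scgb1a1, 39.6% of Gstm1 and 35.4% of Ifi27l2a, where an even spread gives 1.35%. The same number held 2.45% of Sftpc, 3.18% of Lyz2, 3.10% of Scd1 and 7.78% of Lcn2. Sftpc, whose lower limit the rule set, Lyz2 and Scd1 were thus close to an even spread, Lcn2 was less so, and the other 4 genes were far from it.

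Some genes varied together over the 740 members, which share 1 library and, after thinning, 1 depth. Over 17766 pairs of the 189 more variable genes the median Pearson correlation of log counts was 0.00. It was 0.68 for the metallothioneins Mt1 and Mt2, 0.56 for the desaturases Scd1 and Scd2, 0.55 for Chil1 and Lcn2, and 0.51 for Cd74 and the class II chain gene H2-Ab1. Fasn and Scd1 had 0.48, Sftpb and Sftpc 0.46, Napsa and Sftpb 0.46, and Lyz2 and Sftpa1 0.44. Sftpc and Scd1, both at the top of the members' levels, had -0.20. Sftpc thus went with Sftpb, and Scd1 with Scd2 and Fasn, but Sftpc and Scd1 did not go together.

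The members were also put in order of Sftpc share and cut into 247, 247 and 246 cells, at shares of 3.17% to 8.09%, 8.10% to 11.8% and 11.8% to 19.6%. Levels of other genes were taken over UMIs other than Sftpc. Median depth was 12793, 14852 and 15352 UMIs in these groups, ribosomal protein genes had 22.0%, 20.4% and 18.6% and mitochondrial genes 5.37%, 5.02% and 4.84%. The nuclear RNA Malat1 stood at 23842, 20397 and 17441 CPM, a ratio of 0.732. The part of depth and of these RNAs in the differences was not tested. Of 8081 genes, 63 (0.780%) were at least 2-fold higher and 36 (0.445%) lower in the highest group than in the lowest, with a median of -0.10. Sftpb stood at 10402, 13399 and 16665 CPM over the 3 groups and Sftpa1 at 7206, 9715 and 11848 CPM. Napsa stood at 1406, 2181 and 3087 CPM, a ratio of 2.20 (2.12 to 2.28). Of the 8 class II genes 2 were past 2-fold higher in the highest group, with a median of 0.74. Their transcriptional activator Ciita had a ratio of 1.01 (0.702 to 1.46), and H2-Ab1 had a ratio of 2.34 (2.20 to 2.48). The 6 primed AT2 genes with enough UMIs were also all above 1, and of the 16 protein folding genes 13 were.

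Some AT2 genes were lower in the highest group. Abca3 stood at 726, 589 and 549 CPM from the lowest to the highest group, a ratio of 0.757 (0.711 to 0.806), and Slc34a2 at 4759, 4314 and 3964 CPM. Scd1 had a ratio of 0.871, Lamp3 0.854 and Lpcat1 0.830, while the lipid genes Fabp5 (1.65), Elovl1 (1.53) and Fdps (1.85), of sterol synthesis, were higher. Other lipid genes were lower, with Acaca at 0.699, Acsl4 at 0.761, Scd2 at 0.778 and Fasn at 0.839, and 8 of 23 fatty acid and sterol genes were above 1 with a median of -0.09, near that of all genes. Of 20 transcription factors 6 were above 1 and of 13 growth factor genes 1 was, beside 3119 of all 8081 genes. Abca3, Slc34a2 and Lamp3 hence went the other way from Sftpb and Sftpa1, and 7 of 15 lamellar body and handling genes were above 1.

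In the IL-1β library the same rule found 1652 of 3066 barcodes, 53.9%, with a median of 11393 UMIs per cell beside 14036 in the control members. Its Krt8 limit is set within each library, at 1.17 there and 0.734 in the control, and 1126 barcodes passed with the control limit. Over the control members, 914 of 11067 genes (8.26%) were at least 2-fold higher and 377 (3.41%) lower in the IL-1β cells. Lipid synthesis genes stood higher in the control members: none of 24 fatty acid and sterol genes was higher in the IL-1β cells, 9 were past 2-fold lower and the median was -0.84, beside 0.11 for all genes, of which 6671 of 11067 were above 1. Scd1 stood at 18208 CPM in control and 5485 CPM in IL-1β cells, Fasn at 1592 and 630 CPM, and Etv5 at 303 and 92.0 CPM. Bex2 stood at 906 CPM in control and 25.2 CPM in IL-1β cells. Among the other genes with the lowest ratios were Igfbp2, Bex4, Mlana and Arxes2.

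Surfactant proteins were divided between the conditions, with Sftpc at 0.752 and Sftpb at 0.744 times the control level in IL-1β cells, but Sftpa1 at 1.53 and Sftpd at 1.92 times. Of the other markers Abca3 had a ratio of 0.505, Slc34a2 0.711 and Lamp3 0.942. Lcn2 was 5.26 times (5.21 to 5.32) and Chil1 3.45 times higher in IL-1β cells, 5 of the 8 listed primed AT2 genes (4 of the 7 without Lcn2) were past 2-fold higher with a median of 1.50, and all 8 class II genes were above 1 with a median of 0.66. Of the 15 DATP genes 6 were past 2-fold higher and 12 above 1, with a median of 0.73 that was 0.58 with the control limit in both libraries. All 6 genes of the Krt8 score are in this list and the score's limit was higher in the IL-1β library, so the rule fixed part of the count. Of the 6 genes past 2-fold, Cldn4 (6 UMIs in the control members and 485 in IL-1β cells), Sprr1a (4.70) and Sfn (3.11) are score genes, and Ndrg1 (14.7), AW112010 (13.6) and Gdf15 (3.13) are not. Among markers of other cells, the stromal gene Dcn stood at 5.68 CPM in control and 131 CPM in IL-1β cells, with no cell holding over 13 of its 2591 UMIs there, while Col1a2 stood at 28.3 and 30.9 CPM. The 10 stromal markers summed to 386 and 436 CPM with 1 past 2-fold higher and 2 lower. The 10 macrophage and leukocyte genes summed to 12.3 and 41.2 CPM, nearly all of it Cd68 in IL-1β cells (40.7 CPM, 5.99 times the control level). Of the 11 immediate early and heat shock genes 3 were past 2-fold higher in IL-1β cells and 9 were above 1, with a median of 0.52. The part of these markers and stress genes in the differences between the libraries was not tested. The patchy gene Lyz1 was at 210 and 221 CPM, a ratio of 1.05 (0.999 to 1.11). Pigr, the receptor that carries antibodies across epithelia, had 39 UMIs in the control members, 3.63 CPM, and 218 CPM in IL-1β cells. Neurl3, Ceacam10 and Mmp12, also among the 6 genes with the highest ratios, had 1, 2 and 1 UMIs in the control members, too few for a firm ratio. Scgb3a1 and Bpifa1, airway secretory genes with 0 and 3 UMIs in the control members, completed that group. Of their IL-1β UMIs 712 of 1498 and 1026 of 1181 were in 1 cell each. Without the richest cell of each group both stayed higher in IL-1β cells. Scgb3a1 was at least 116 times and Bpifa1 84.4 times (14.9 to 3355) as high, though 10 cells held 88.5% and 96.3% of these UMIs. Of the 5 airway genes with enough UMIs 3 were past 2-fold higher and 1 lower, Scgb1a1, with a ratio of 0.185 (0.164 to 0.209).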

How the data were processed

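Organoid cells were profiled by droplet single-cell RNA sequencing (10x Genomics 3′ chemistry), 1 library per condition. The authors deposited raw UMI counts of 27998 genes per barcode, made with Cell Ranger on GRCm38, and the submitters' processing notes also name Scanpy 1.3.6 and mm9. The deposited files were not cut by the study's filter (over 500 and under 7000 genes, over 2000 UMIs), which all 740 members pass. UMIs mark transcript 3′ ends, so levels were not scaled by length.

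UMIs of a gene symbol were summed over the cells of a class and divided by that class's total (CPM). Intervals are at 95%: exact Poisson for levels, exact conditional binomial for ratios, Clopper-Pearson for shares. Genes with at least 50 UMIs over both groups were compared, and a gene past 2-fold was called. No test between conditions or classes was made, as each condition is a single library. Cells were thinned without replacement to 4600 UMIs. Analyses used Python 3.11.15, numpy 2.4.6, scipy 1.17.1, pandas 2.3.3 and matplotlib 3.10.9, and the steps were checked on simulated data. Gene positions are those of GENCODE M21 and promoters those of RefSeq.

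The members, the 22 gene lists and the comparisons were chosen with earlier results of these data known. Named genes are those of the lists, the 12 highest and 12 lowest ratios (at least 100 UMIs), the 12 highest Fano factors, the 12 most abundant genes and, for IL-1β, 6 on each side. Alternatives changed each step of the rule, the UMI minimum, the comparison group and the scaling. The in vivo samples were not analysed here. Some genes that these rules name are not reported here.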

Additional observations from a re-analysis of the deposited data

How the results depend on the processing

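With 1 library per condition, no spread between replicates could be measured, and the IL-1β cells were less deep than the control members. No paired analysis was possible because each condition is 1 library and no test was made. The number of members stayed between 657 and 796 under other limits for Sftpc, the Krt8 score and the AT1 and cell cycle steps, but was 260 when the epithelial sum had to exceed 5 times the stromal sum. With that limit 307 genes were past 2-fold lower than in other epithelial cells, and 420 higher than in cells failing the epithelial step. Genes past 2-fold higher than in other epithelial cells numbered 14 when 20% were dropped on the Krt8 score, and 15 and 46 with AT1 and cell cycle steps at 1 and 4 UMIs. With a minimum of 10 UMIs, 194 were higher and 1165 lower, and with 200, 4 and 211. For IL-1β against control the counts were 1495 and 751 with 10 UMIs, and 480 and 169 with 200. Against single classes, 87 genes were higher than in AT1-gene cells, 371 than in cycling cells, 199 (215 lower) than in Krt8-program cells and 475 (3275 lower) than in the 7 Sftpc-low cells. Adding intermediate cells to the other epithelial cells, after the data were seen, gave 80 and 1143. Against intermediate cells with AT1 genes, also added, 561 were higher and 1813 lower.

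Against other epithelial cells 11 named genes turned direction under at least 1 alternative, among them 5 of the 12 furthest above (values are log2 ratios). Scgb1a1 went to 0.037 with steps at 4 UMIs, 0.37 with the stricter epithelial limit, and 1.62, 0.19 and 2.77 against cycling, Krt8-program and Sftpc-low cells. Against cycling cells Lyz1 was at -0.17, Sprr1a at 1.31 and Ager at 0.091. Against Krt8-program cells, which hold no cycling cells by rule, Ube2c was at 0.063, Rrm2 at 1.14 and Ccna2 at 0.22. Against Sftpc-low cells Ccl5 was at -2.15, Ros1 at -1.48, Prmt8 at -0.34, Fat2 at -0.65 and Ager at 0.58. Against all barcodes failing the epithelial step the DATP median and Ager were lower in members, but against stromal cells alone they were at 0.14 and 0.39. Against intermediate cells with AT1 genes the transcription factor median was -0.063, the class II median -0.070 and Cd74 -0.19. Leaving surfactant, mitochondrial and ribosomal UMIs out of the totals moved the median of all genes by 0.08 against other epithelial cells and 0.22 against stromal cells, and by -0.13 for IL-1β against control, and put the fatty acid and transcription factor medians against other epithelial cells at 0.07 and 0.08. The cause of these changes was not tested.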

Other observations

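Membership was also repeated on 1 of 2 random splits of every cell's UMIs, so that Sftpc could be read in UMIs that had not chosen the cell. The rule found 733 cells, 664 of them among the 740 members, and in the UMIs not used Sftpc made up 2.23% to 19.7% of these cells, with a median of 9.95%. Among barcodes that failed the epithelial step, 103 had at least 3% Sftpc, and 31 of these passed the AT1 and cell cycle steps. Abhd2, a hydrolase gene noticed after the values were seen, varied with the actin gene Actb over the members, with a correlation of 0.54.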
